A study of Mus musculus with 8 samples.

Results

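The 7 genes described here encode proteins that bind cytokine and other immune transcripts and speed their decay. They were picked by symbol from a deposited table of 25124 genes: Zfp36, Zfp36l1 and Zfp36l2 (the ZFP36 family), Zc3h12a and Zc3h12d (the Regnase family), and Rc3h1 and Rc3h2 (the Roquin family). All 7 were in the table, and all 7 were among the 19146 genes that passed the filter on low counts. RNA was sequenced from splenic CD4 T cells of mice carrying a KLF2 GFP and a FOXP3 RFP reporter, 2 libraries in each of 4 groups. Cells without FOXP3 and with high CD44, the surface state of activated and memory T cells, were sorted by reporter into KLF2+ and KLF2- cells. Each population was then kept for 48 h without a stimulus or with antibodies to CD3 (2.5 µg/mL) and CD28 (1.25 µg/mL), which trigger the antigen receptor together with CD28 costimulation. All groups carried both reporters, so KLF2+ and KLF2- name sorted states and not different alleles. The sort came before the culture, and neither the age and sex of the mice nor any pooling is stated in the labels. The labels do not say that the 2 libraries of a group came from separate mice or cultures, so p-values measure only the spread between these libraries, which may be technical.

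ZFP36 proteins recognise AU-rich elements in the 3′ untranslated region (3′UTR) of cytokine messages and bring in the CCR4-NOT complex, which shortens the poly(A) tail. Regnase proteins are endonucleases that cut stem-loops in 3′UTRs, and Roquin proteins bind similar stem-loops and recruit deadenylation and decapping factors. In T cells these proteins restrain transcripts for cytokines, costimulatory receptors and signalling factors. Antigen receptor signalling is known to act on them after translation: the MALT1 protease cleaves Regnase and Roquin proteins, and the kinase MK2 phosphorylates ZFP36. RNA-seq reads the amount of transcript and not this protein control.

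The AU-rich nonamer TTATTTATT, the core to which ZFP36 proteins bind, was found in the annotated 3′UTR of 5 of the 7 genes themselves, 1 copy each. The windows below are 30 bases of the mRNA strand, 5′ to 3′, read from GRCm38 with the GENCODE transcripts, and are shown because they set the decay regulators beside a classic target of theirs. Capitals mark the nonamer, and the last line is Tnf, a textbook ZFP36 target, where 4 overlapping copies run together.
Zfp36, chr7:28376951-28376980, minus strand: ttatgacgactTTATTTATTgtattaagat
Zfp36l1, chr12:80108167-80108196, minus strand: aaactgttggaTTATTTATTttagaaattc
Zfp36l2, chr17:84184914-84184943, minus strand: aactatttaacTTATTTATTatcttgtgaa
Rc3h1, chr1:160970042-160970071, plus strand: tactttactcaTTATTTATTgagatgagga
Rc3h2, chr2:37373287-37373316, minus strand: acaaagacattTTATTTATTttactctgta
Tnf, chr17:35199674-35199703, minus strand: ttaTTATTTATTTATTATTTATTTATTtgc

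The 3 ZFP36 family genes and both Roquin genes held the nonamer, and neither Regnase gene did. The search read the mRNA strand only and allowed copies to overlap. Over all coding genes with an annotated 3′UTR, 1589 of 20949 (7.59%) held it. The share depends on length, and among genes with a 3′UTR of 0.8 to 1.25 times the same length it was 4.25% for Zfp36 (774 bases), 9.91% for Zfp36l1 (1835 bases), 9.79% for Zfp36l2 (1822 bases), 27.8% for Rc3h1 (7181 bases) and 22.0% for Rc3h2 (5331 bases). In a list of 19 transcripts known as ZFP36 targets, 9 held it (47.4%), with 5 copies in the whole 3′UTR of Tnf and 4 in that of Csf2. In a list of 15 known Regnase and Roquin targets, 4 held it. A match is a description of these letters and not a measured binding site.

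Libraries differed strongly in how much of the sequencing fell in exons, and this touches every comparison below. Aligned tags numbered 33.9 M to 45.6 M (M, mega) per library but exon reads 2.99 M to 36.6 M, from 7.96% of tags in stimulated KLF2- replicate 4 (95% Wilson interval 7.95% to 7.97%, counting error only) to 80.3% in stimulated KLF2+ replicate 2 (80.3% to 80.3%). Reads over olfactory and vomeronasal receptor genes, whose transcripts are not part of the T cell repertoire, gave a measure of background. The background estimated from their density was smallest with stimulated KLF2+ cells (0.401% and 1.24% of exon reads) and largest with stimulated KLF2- cells (11.4% and 20.1%), and unstimulated libraries lay between (2.61% and 7.06% for KLF2+, 7.09% and 7.80% for KLF2-). Summed markers of T cells stood at 2852 to 8303 CPM (counts per M counted reads, here with TMM scaling) in the 8 libraries and none of the 10 was at 0. The sum moved with the groups: with stimulus it was 7549 and 8210 CPM for KLF2+ against 2987 and 2852 CPM for KLF2-, and without stimulus 5537 and 8303 against 4058 and 4491 CPM. Its part in the differences between KLF2 states below was not tested. The Klf2 transcript followed the sort, at 303 and 379 CPM in unstimulated KLF2+ cells against 41.0 and 65.0 CPM in unstimulated KLF2- cells. Each fold change is therefore given first from edgeR's quasi-likelihood test with TMM scaling, and then from the same test after background was subtracted and scaling was taken from genes of at least 50 CPM (the corrected fit). A gene was called when its p-value, adjusted by the Benjamini-Hochberg method over all genes tested in that fit, was under 0.05. In the stimulated comparison the 50 CPM scaling alone shifted the median over all genes from -0.19 to -1.37 on the log2 scale, so a direction there is relative to the scaling used.

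Levels can be compared between genes only per length, which the deposited TPM values allow. In unstimulated KLF2+ cells Zfp36 led at 149 ± 4.40 TPM (SD, n = 2, as throughout this paragraph), followed by Zfp36l2 at 105 ± 6.39, Zfp36l1 at 34.1 ± 1.87 and Zc3h12d at 14.4 ± 2.24. Rc3h2 at 9.05 ± 4.99, Rc3h1 at 4.73 ± 2.30 and Zc3h12a at 3.82 ± 1.78 closed the order, and neighbours among these 3 did not differ beyond their spread. The order of the first 4 was the same in stimulated KLF2+ cells, at 83.9 ± 4.26, 42.9 ± 9.13, 18.5 ± 7.41 and 15.3 ± 2.18 TPM. There Zfp36l1 and Zc3h12d overlapped, and the other 3 genes lay between 2.21 and 3.70 TPM in every library. In unstimulated KLF2- cells Zfp36 (133 ± 26.1) and Zfp36l2 (97.2 ± 26.4) overlapped, with Zfp36l1 next at 60.1 ± 9.97 and Zc3h12d at 20.5 ± 1.31. In stimulated KLF2- cells Zfp36l2 (126 ± 43.3) and Zfp36 (115 ± 37.9) overlapped again, Zfp36l1 stood at 63.4 ± 5.20, and Rc3h2 stood at 24.8 ± 6.07, overlapping Zc3h12d at 20.1 ± 0.86. The ZFP36 family genes held the highest values in every group mean, and Zc3h12a was among the lowest 2 in every group mean.

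**Figure D1:**
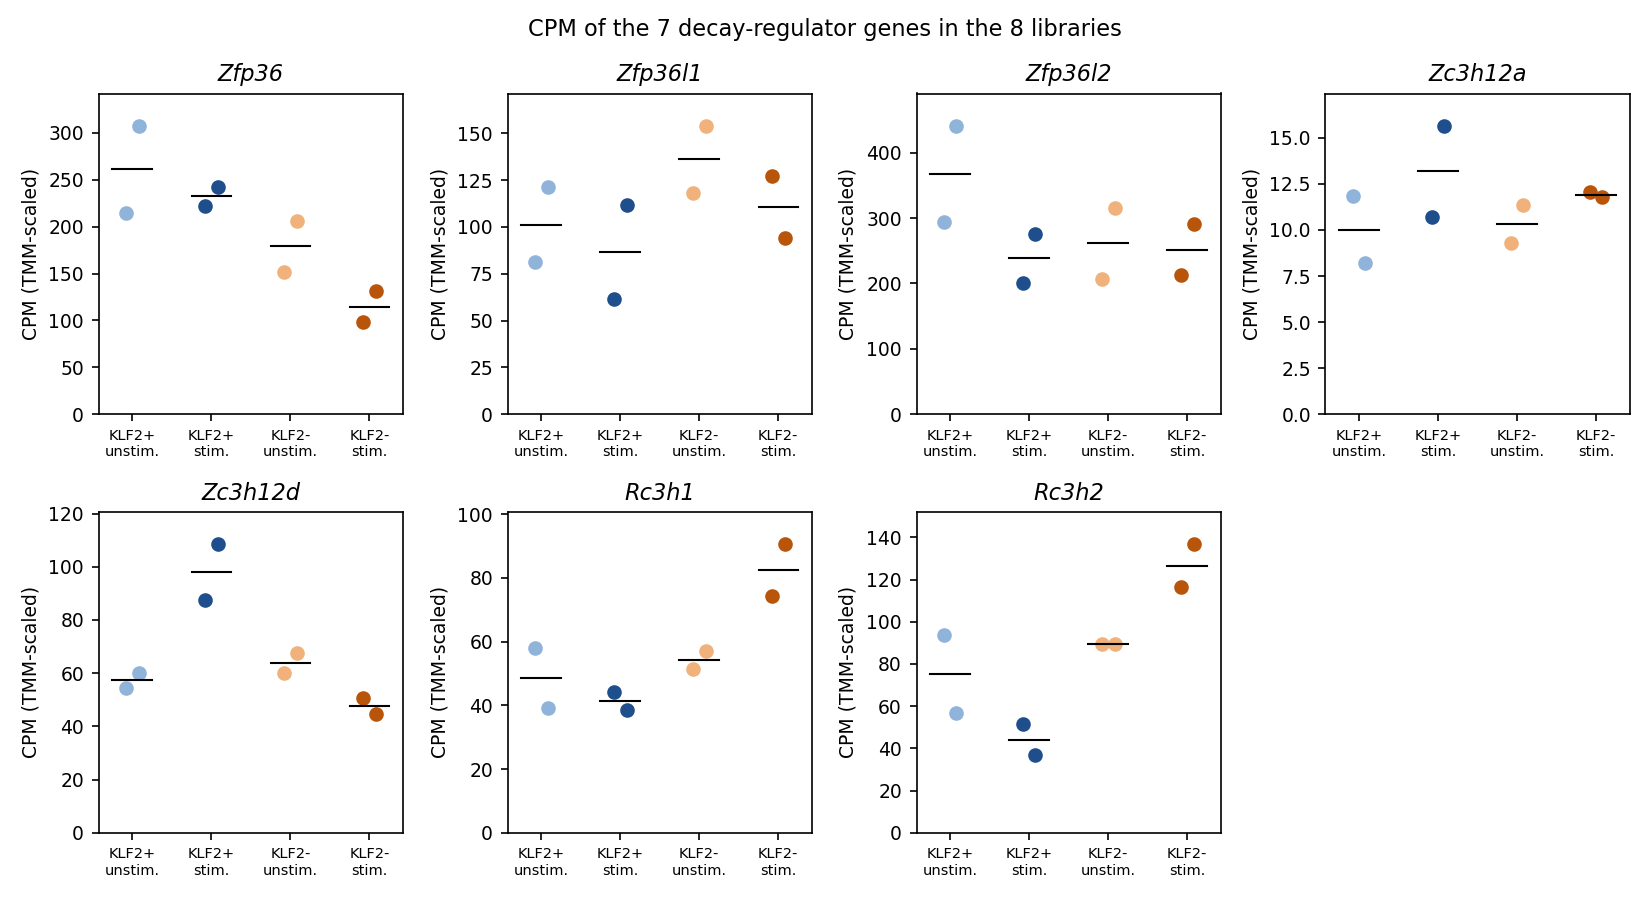
CPM (vertical axis, TMM-scaled, starting at 0) of each of the 7 genes in the 4 groups. Points are libraries, 2 per group, and bars are group means. Rc3h2 is lowest in stimulated KLF2+ cells (51.5 and 36.7 CPM) and highest in stimulated KLF2- cells (116 and 137 CPM), while Zc3h12d is highest in stimulated KLF2+ cells (87.5 and 109 CPM).

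Zfp36 encodes tristetraprolin, the founding member of its family. The gene lies on the minus strand of mm10 chromosome 7 (28376784 to 28379228), with 1761 bases of exon. Its level in KLF2+ cells was 214 and 308 CPM unstimulated and 222 and 242 CPM stimulated. Its level in KLF2- cells was 152 and 206 CPM unstimulated and 98.3 and 131 CPM stimulated. Both KLF2+ libraries were above both KLF2- libraries in each state of stimulation. Such a separation was common: the 2 groups did not overlap in 59.0% of all genes tested without stimulus and in 90.4% with stimulus. Without stimulus KLF2+ against KLF2- gave a log2 value of 0.55 ± 0.26, which did not pass (SE from the fit of all 8 libraries, n = 2 per group, edgeR adjusted p = 0.282). In the corrected fit the value was 0.22 ± 0.25 (edgeR adjusted p = 0.669). With stimulus Zfp36 was higher in KLF2+ cells by 1.02 ± 0.26 (edgeR adjusted p = 0.00615). The corrected fit gave -0.25 ± 0.26 (adjusted p = 0.423), so both the call and its direction depended on the scaling, and 0.17 without stimulated KLF2- replicate 4. On the TPM scale the 2 stimulated KLF2+ libraries, at 80.9 and 86.9, lay below the KLF2- libraries at 87.7 and 141.

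Markers of other cells moved with the unstimulated KLF2+ group. The summed level of 15 myeloid markers was 1118 and 1934 CPM there and 96.8 to 177 CPM in the other 6 libraries, with 1 of the 15 at 0 in each KLF2- library and none at 0 in the KLF2+ libraries. Lyz2 made up most of it, at 705 and 1376 CPM. The part of these cells in the Zfp36 values of that group was not tested. In bulk RNA, fewer cells of a type and less RNA per cell cannot be told apart.

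Zfp36l1 and Zfp36l2 encode the 2 close relatives of tristetraprolin in T cells, where they act together in thymocyte quiescence. Zfp36l1 (mm10 chromosome 12, 80107760 to 80113013, minus strand) stood at 81.4 and 121 CPM in unstimulated KLF2+ cells, 61.5 and 112 CPM in stimulated KLF2+ cells, 118 and 154 CPM in unstimulated KLF2- cells, and 127 and 93.9 CPM in stimulated KLF2- cells. The KLF2+ and KLF2- libraries overlapped in both states. Zfp36l2 (mm10 chromosome 17, 84183928 to 84187947, minus strand) stood at 294 and 441, 201 and 275, 207 and 315, and 213 and 291 CPM in the same group order, and its groups overlapped in the same way. Neither gene was called between KLF2 states with TMM scaling: with stimulus Zfp36l1 had a log2 fold change of -0.35 ± 0.32 (edgeR adjusted p = 0.329) and Zfp36l2 of -0.08 ± 0.30 (adjusted p = 0.82). In the corrected fit both were lower in stimulated KLF2+ cells. Zfp36l1 fell by 1.55 ± 0.28 on the log2 scale (edgeR adjusted p = 0.00401) and Zfp36l2 by 1.36 ± 0.31 (adjusted p = 0.0094). Without stimulated KLF2- replicate 4, the library with the highest background, the corrected values were -1.62 (adjusted p = 0.00934) and -0.91 (adjusted p = 0.0307). The noncoding gene Gm26669 lies antisense over 55.9% of the exon bases of Zfp36l1, and an antisense gene covers 2.97% of those of Zfp36l2. No source used here says whether the counting used strand, so reads of Zfp36l1 and Gm26669 cannot be told apart.

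The make-up of the ZFP36 family within a library does not depend on how libraries are scaled to each other. As a share of the family's reads per kb of exon, Zfp36l1 was 11.8% ± 0.13 in unstimulated KLF2+ cells, 12.5% ± 3.32 in stimulated KLF2+ cells, 20.8% ± 1.03 in unstimulated KLF2- cells and 21.8% ± 7.17 in stimulated KLF2- cells (SD, n = 2 each). All 4 KLF2+ libraries (10.1% to 14.8%) lay below all 4 KLF2- libraries (16.7% to 26.9%). In CPM, the KLF2+ and KLF2- groups did not overlap in 59.0% of all genes without stimulus and 90.4% with stimulus. The Zfp36l1 share includes any reads of the antisense Gm26669. Summed dendritic cell markers ran the same way, at 44.3 to 65.7 CPM in KLF2+ and 128 to 170 CPM in KLF2- libraries. The part of either in the Zfp36l1 share was not tested. Zfp36 itself made up 51.9% ± 0.75 and 58.1% ± 5.39 of the family in unstimulated and stimulated KLF2+ cells and 46.0% ± 0.92 and 37.3% ± 3.15 in unstimulated and stimulated KLF2- cells. The mean share of Zfp36 was thus larger after stimulation in KLF2+ cells and smaller after stimulation in KLF2- cells. The libraries of each pair of groups did not overlap, though the closest KLF2+ libraries stood at 52.4% and 54.3%. In CPM, 75.3% of all genes separated in this way in KLF2+ cells and 61.4% in KLF2- cells. The level of Zfp36l2 per kb relative to Zfp36 showed the contrast in the Zfp36 share from the other side. Without stimulus this ratio was 0.684 and 0.716 for the KLF2+ libraries and 0.682 and 0.763 for the KLF2- libraries, 2 pairs that overlapped. With stimulus it was 0.451 and 0.568 in KLF2+ cells and 1.08 and 1.10 in KLF2- cells. Subtracting background left the 4 stimulated ratios at 0.450, 0.568, 1.08 and 1.11. No test was run on these shares: an exact two-sided permutation of 2 libraries against 2 cannot go below p = 0.333.

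**Figure D2:**
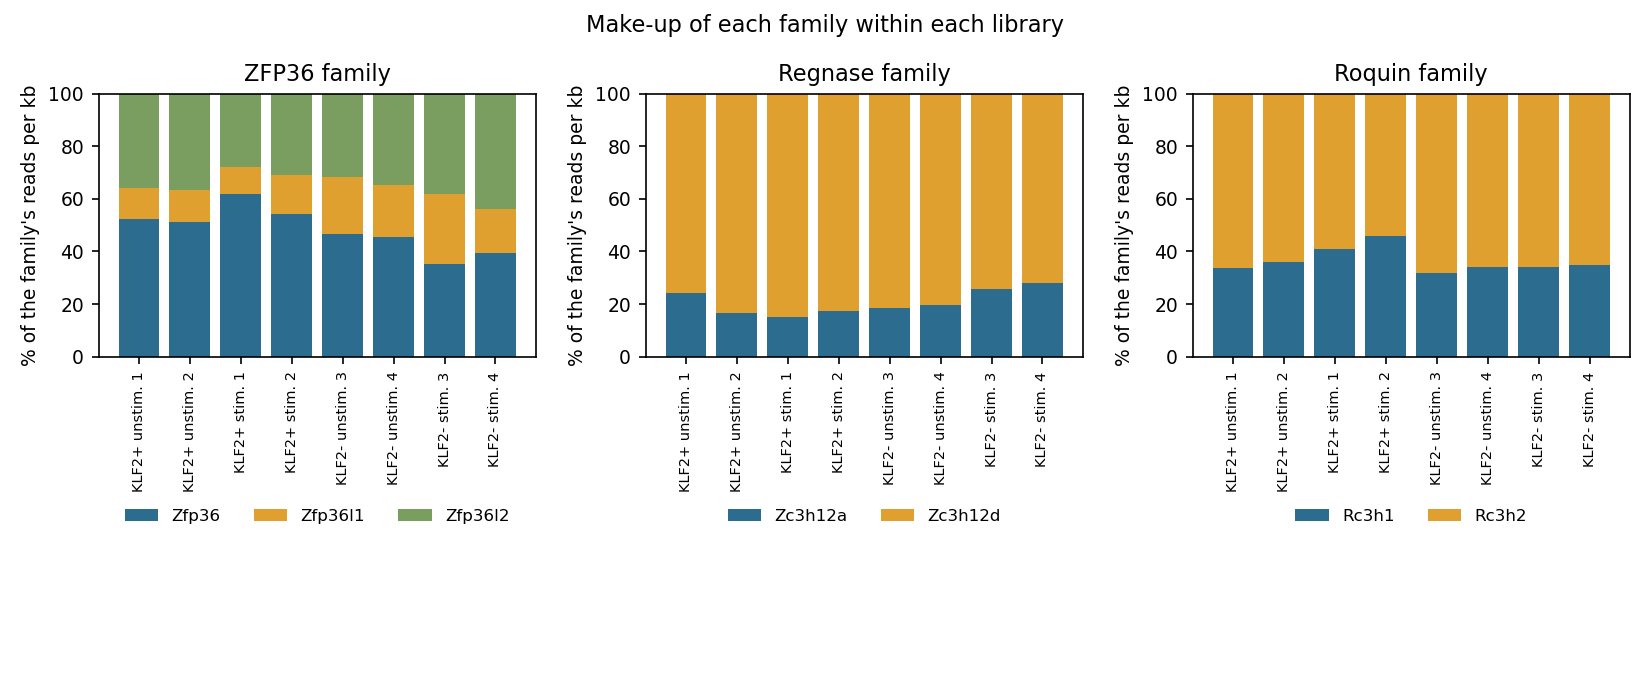
Share (vertical axis, %) of each gene in its family's reads per kb of exon, 1 stacked bar per library, for the ZFP36, Regnase and Roquin families. In the ZFP36 panel the Zfp36l1 band is 10.1% to 14.8% in the KLF2+ libraries and 16.7% to 26.9% in the KLF2- libraries.

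Among the Regnase genes, Zc3h12a encodes Regnase-1 and Zc3h12d encodes Regnase-4, a lymphocyte member of the family. Zc3h12a (mm10 chromosome 4, 125118414 to 125127881, minus strand) was the lowest of the 7 in CPM, at 8.22 to 15.7 CPM from 54.5 to 359 reads, and was not called in any comparison with either fit. Background was estimated at 1.68% to 45.3% of its reads, the highest in stimulated KLF2- replicate 4, so this gene was the least well measured. Zc3h12d (mm10 chromosome 10, 7832470 to 7870397, plus strand) stood at 54.5 and 60.1 CPM in unstimulated KLF2+ cells, 87.5 and 109 CPM in stimulated KLF2+ cells, 59.96 and 67.6 CPM in unstimulated KLF2- cells, and 50.8 and 44.7 CPM in stimulated KLF2- cells. In CPM the stimulated KLF2+ libraries were above all the others. Of all genes tested, 90.4% did not overlap between stimulated KLF2+ and stimulated KLF2- cells. Between stimulated and unstimulated KLF2+ cells it was 75.3%. Zc3h12d was higher in stimulated KLF2+ than in stimulated KLF2- cells by 1.04 ± 0.20 (log2, SE, n = 2 per group; edgeR adjusted p = 0.00142), and it rose in KLF2+ cells with stimulation by 0.77 ± 0.19 (adjusted p = 0.0162). The corrected fit gave -0.02 ± 0.17 (edgeR adjusted p = 0.922) and 0.36 ± 0.16 (adjusted p = 0.13), and neither passed. In TPM the 2 KLF2 states were in the opposite order, at 13.7 and 16.8 in the stimulated KLF2+ libraries and 19.5 and 20.7 in the stimulated KLF2- libraries. The share of Zc3h12a in the Regnase pair was 26.9% ± 1.57 in stimulated KLF2- cells and 16.3% ± 1.57 in stimulated KLF2+ cells (SD, n = 2 each), and 21.0% and 15.8% after background was subtracted.

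The Roquin genes were lower in stimulated KLF2+ than in stimulated KLF2- cells in every fit tried, but not per M aligned tags. Rc3h1 encodes Roquin-1, known from the sanroque mouse for restraining follicular helper T cells, and Rc3h2 encodes its partly redundant relative Roquin-2. Rc3h2 (mm10 chromosome 2, 37370071 to 37422903, minus strand) stood at 93.7 and 56.6 CPM in unstimulated KLF2+ cells, 51.5 and 36.7 CPM in stimulated KLF2+ cells, 89.4 and 89.3 CPM in unstimulated KLF2- cells, and 116 and 137 CPM in stimulated KLF2- cells. The stimulated KLF2+ libraries were the lowest 2 and the stimulated KLF2- libraries the highest 2 of the 8. These 2 groups did not overlap in 90.4% of all genes tested. Rc3h1 (mm10 chromosome 1, 160906411 to 160974976, plus strand) stood at 58.1 and 39.2, 44.1 and 38.4, 51.4 and 57.1, and 74.2 and 90.6 CPM in the same group order, with the stimulated KLF2- libraries again the highest 2. With stimulus Rc3h2 was lower in KLF2+ than in KLF2- cells, by -1.52 ± 0.27 (log2, SE, n = 2 per group; edgeR adjusted p = 0.00103), and Rc3h1 by -0.998 ± 0.23 (adjusted p = 0.00383). The corrected fit gave -2.698 ± 0.37 (edgeR adjusted p = 0.00191) and -2.02 ± 0.31 (adjusted p = 0.00245). Of all genes, 39.7% were called lower in this comparison with TMM scaling and 37.2% in the corrected fit. Over 18 alternatives Rc3h2 was called lower in all 18 and Rc3h1 in 17. The exception for Rc3h1 was the fit without stimulated KLF2+ replicate 2 (-0.86, adjusted p = 0.0512). Within the pair, Rc3h1 held 43.5% ± 3.50 of the reads per kb in stimulated KLF2+ cells and 33.0% to 34.8% as the mean of the other 3 groups.

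The reads behind the Roquin values varied far less between libraries than the exon reads did. The deposited reads of Rc3h2 ran from 628.5 to 880 over the 8 libraries, a 1.40-fold range, while exon reads ranged 12.3-fold and aligned tags 1.35-fold. Of 10755 genes averaging at least 10 CPM, 10 (0.0930%), Rc3h2 itself included, had a range as narrow as that of Rc3h2. Rc3h1 had 416 to 880.5 reads and a 2.12-fold range, and 211 of them (1.96%), Rc3h1 itself included, had a range as narrow. Per M tags, Rc3h2 stood at 16.7 to 23.7 reads in all libraries. With stimulus it was at 20.1 and 18.5 in KLF2+ and 19.8 and 16.7 in KLF2- cells, which overlapped. Rc3h1 stood at 17.2 and 19.3 against 12.6 and 11.1 on that scale, the opposite order to its CPM. The log2 CPM of Rc3h2 had a Pearson r of 0.99 with the log2 background share over the 8 libraries, and Rc3h1 one of 0.87. For Zc3h12d it was -0.94 and for Zfp36 -0.68. These 8 points share the depth and scaling of their libraries and fall into groups, so the coefficients are descriptions. Background at the receptor-gene density would supply 2.30% to 12.6% of the reads of Rc3h2 and 2.698% to 23.3% of those of Rc3h1. The part of reads outside spliced transcripts beyond that density in the Roquin values was not tested.

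**Figure D3:**
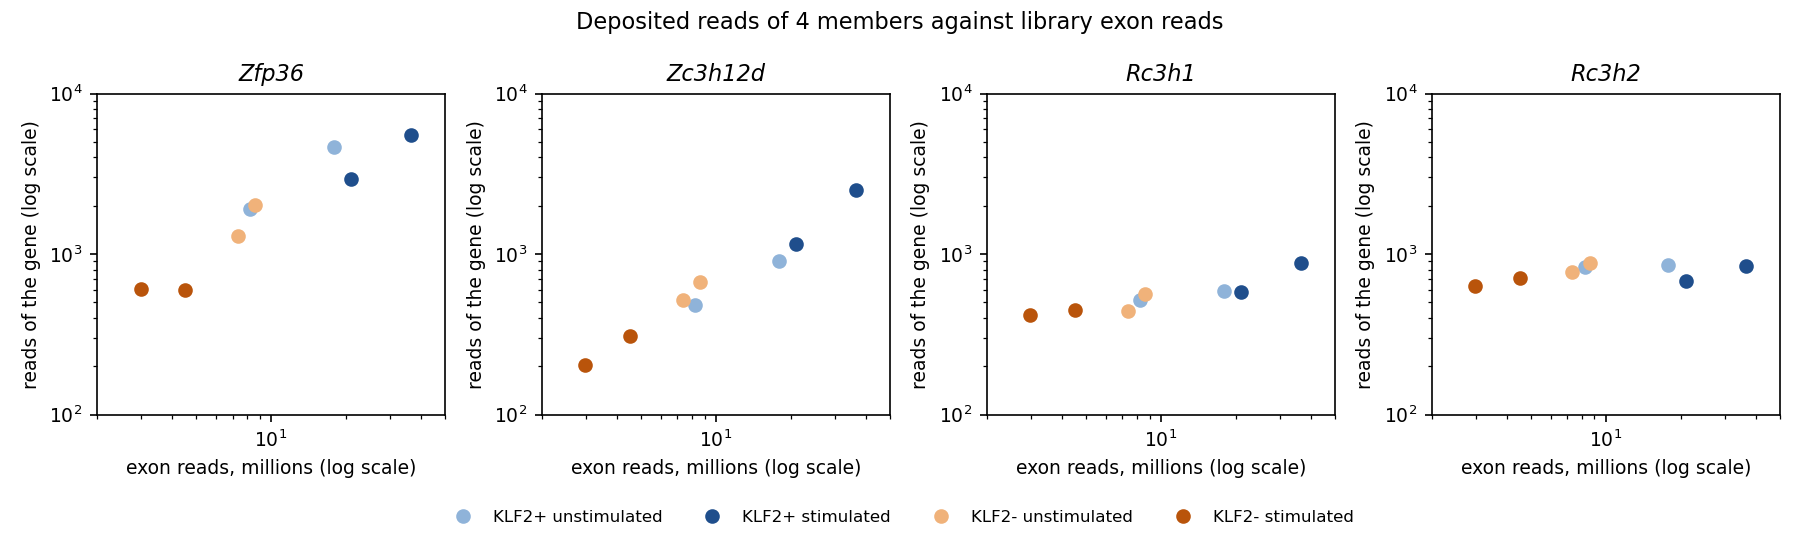
Deposited reads of Zfp36, Zc3h12d, Rc3h1 and Rc3h2 (vertical axis, log scale) against exon reads in M (horizontal axis, log scale), 1 point per library, coloured by group. Zfp36 and Zc3h12d climb with exon reads, while Rc3h2 stays between 628.5 and 880 reads from 2.99 M to 36.6 M exon reads.

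Without stimulus none of the 7 genes was called between KLF2+ and KLF2- cells by edgeR, against 2.32% of all genes tested (1.07% higher and 1.25% lower). None had an unadjusted p under 0.05 with TMM scaling, and 2 had in the corrected fit, where again none was called against 3.97% of all genes (0.987% higher and 2.98% lower). The log2 fold changes were 0.55 for Zfp36, -0.43 for Zfp36l1 and 0.49 for Zfp36l2. They were -0.0503 for Zc3h12a and -0.15 for Zc3h12d, and -0.16 for Rc3h1 and -0.25 for Rc3h2. Their median was -0.15 beside -0.11 for all genes. DESeq2's Wald test and limma on TPM also called none. With 2 libraries a group and SEs of 0.20 to 0.37, a missed threshold does not show that the levels were equal.

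With stimulus 4 of the 7 were called between the KLF2 states, Zfp36 and Zc3h12d higher and Rc3h1 and Rc3h2 lower in KLF2+ cells. The other 3, Zfp36l1, Zfp36l2 and Zc3h12a (0.15 ± 0.37, edgeR adjusted p = 0.717), did not pass. These counts stand beside 75.2% of all genes called, 35.5% higher and 39.7% lower, and whether the members differ from that share was not tested. The median of the 7 was -0.08 beside -0.19 for all genes. In the corrected fit 4 were called too, but all lower (Zfp36l1, Zfp36l2, Rc3h1 and Rc3h2), beside 54.5% of all genes called and 37.2% called lower. Their median was then -1.36 beside -0.41 for all genes. Limma on log2(TPM + 1) called 5 lower, these 4 and Zc3h12a (-1.08, adjusted p = 0.0188), and none higher. The median over all genes in that fit was also -1.08, so Zc3h12a stood at the general shift. The share of all genes called lower in that fit is not given here, and whether the 5 differ from all genes was not tested. Rc3h1 and Rc3h2 were the 2 members called, and in the same direction, by TMM scaling, DESeq2's size factors, the 50 CPM scaling, the corrected fit and TPM.

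**Figure D4:**
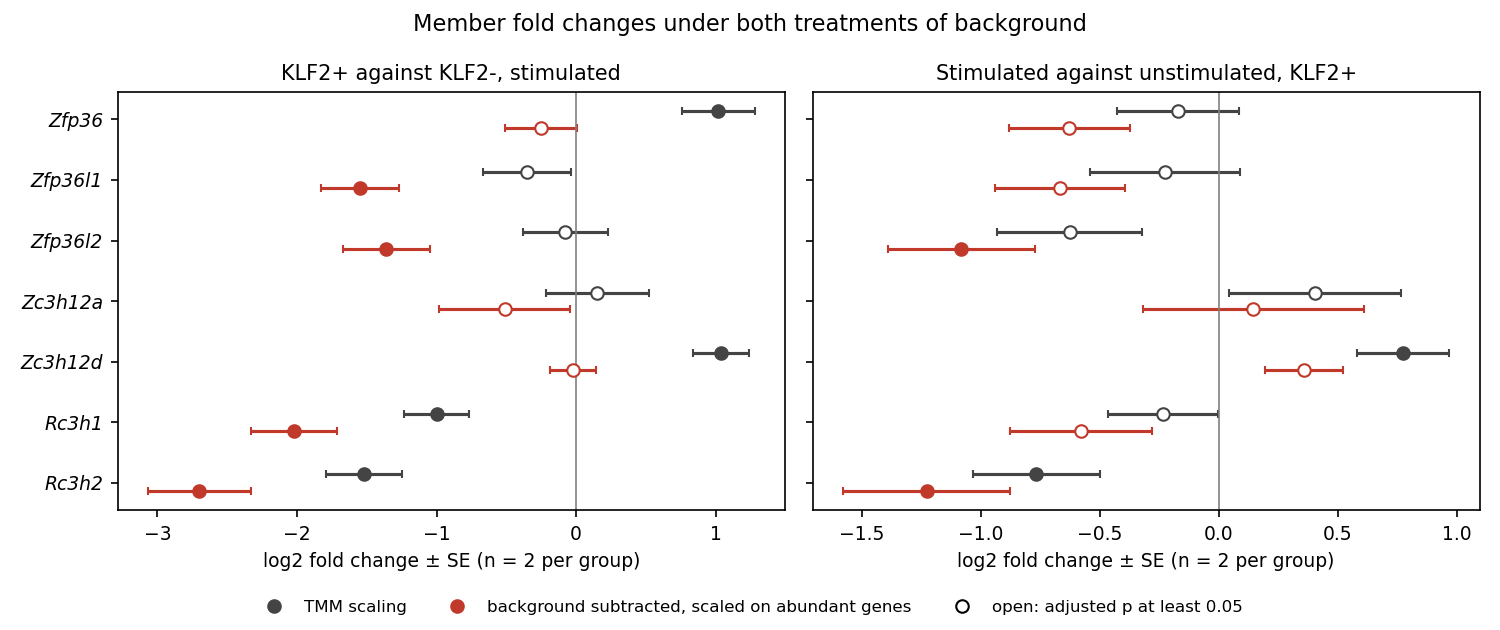
Log2 fold changes ± SE (horizontal axis, n = 2 per group) of the 7 genes for KLF2+ against KLF2- with stimulus (left) and for stimulated against unstimulated KLF2+ cells (right), with TMM scaling (grey) and in the corrected fit (red). Open symbols did not pass at an adjusted p of 0.05. On the left, Zfp36 and Zc3h12d move from about 1 to -0.25 and -0.02, while Rc3h1 and Rc3h2 stay negative.

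Stimulation of KLF2+ cells moved 2 of the 7 with TMM scaling, beside 37.1% of all genes called (19.7% up and 17.4% down). Zc3h12d rose, as given above, and Rc3h2 fell by 0.77 ± 0.27 on the log2 scale (edgeR adjusted p = 0.0475). Neither call held in every fit with a library left out, though both genes kept their direction in all 20 alternatives. Without unstimulated KLF2+ replicate 1, Zc3h12d had 0.68 (adjusted p = 0.0876) and Rc3h2 -0.39 (adjusted p = 0.283), and without stimulated KLF2+ replicate 2 they had 0.61 (adjusted p = 0.203) and -0.53 (adjusted p = 0.32). Rc3h2 also lost its call without unstimulated KLF2- replicate 3 (adjusted p = 0.0875), unstimulated KLF2- replicate 4 (0.0891) or stimulated KLF2- replicate 3 (0.0506), with values of -0.76, -0.75 and -0.76. In the corrected fit, with 28.6% of all genes called and 14.9% called down, Zfp36l2 fell by 1.08 ± 0.31 (edgeR adjusted p = 0.0369) and Rc3h2 by 1.23 ± 0.35 (adjusted p = 0.0376). Zfp36 (-0.63 ± 0.25, adjusted p = 0.0959) and Zfp36l1 (-0.67 ± 0.27, adjusted p = 0.0987) did not pass there, though Zfp36 did without stimulated KLF2- replicate 4 (-0.64, adjusted p = 0.014). Zc3h12a had 0.40 ± 0.36 with TMM scaling and 0.15 ± 0.46 in the corrected fit, and Rc3h1 had -0.23 ± 0.23 and -0.58 ± 0.30, none of which passed. Zfp36l2 was at 294 and 441 CPM before and 201 and 275 CPM after stimulation, and these 2 groups did not overlap, as in 75.3% of all genes. Markers of dividing cells summed to 6162 and 5325 CPM in stimulated KLF2+ cells against 489 and 492 CPM in unstimulated ones. Myeloid markers moved the other way, from 1118 and 1934 CPM without to 115 and 177 CPM with stimulus. The part of either in the member values was not tested.

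In KLF2- cells none of the 7 was called after stimulation, and edgeR called 0 of the 19146 genes. At an unadjusted p under 0.05 there were 2802 genes, Zfp36 (-0.64 ± 0.26, edgeR adjusted p = 0.318) and Rc3h1 (0.60 ± 0.23, adjusted p = 0.301) among them. DESeq2's Wald test called 74 genes, none of the 7, and limma on log2(TPM + 1) called 12, again none of the 7. Rc3h2 had 0.50 ± 0.27, Zc3h12d -0.42 ± 0.20, Zc3h12a 0.20 ± 0.37, Zfp36l1 -0.30 ± 0.32 and Zfp36l2 -0.0541 ± 0.30. Zfp36 and Zc3h12d were lower in both stimulated than in both unstimulated KLF2- libraries, and Rc3h1, Rc3h2 and Zc3h12a were higher. The groups of Zfp36l1 and Zfp36l2 overlapped, and 61.4% of all genes showed such a separation. The 2 stimulated KLF2- libraries also differed from each other: dividing-cell markers summed to 1265 CPM in replicate 3 and 312 CPM in replicate 4.

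The difference between the 2 responses, KLF2+ minus KLF2-, was called for 2 of the 7, beside 35.8% of all genes (20.3% positive and 15.5% negative). It was 1.19 ± 0.28 for Zc3h12d (log2, SE; edgeR adjusted p = 0.0204) and -1.27 ± 0.38 for Rc3h2 (adjusted p = 0.0321). Neither passed without unstimulated KLF2+ replicate 1 (1.09 for Zc3h12d and -0.89 for Rc3h2), stimulated KLF2+ replicate 2 (1.03 and -1.03), unstimulated KLF2- replicate 3 (1.31 and -1.23) or unstimulated KLF2- replicate 4 (1.13 and -1.23), and Rc3h2 did not without stimulated KLF2- replicate 4 (-1.14). In the corrected fit, with 11.8% of all genes called and 7.83% called negative, it was -2.19 ± 0.50 for Rc3h2 (edgeR adjusted p = 0.0402), -1.64 ± 0.42 for Rc3h1 (adjusted p = 0.0488) and 0.44 ± 0.23 for Zc3h12d (adjusted p = 0.21). Without stimulated KLF2- replicate 4 the corrected differences of Rc3h2 (-1.90, adjusted p = 0.0664) and Rc3h1 (-1.34, adjusted p = 0.0856) did not pass. For Zfp36l2 the corrected difference was -1.52 ± 0.44 (adjusted p = 0.0581). With TMM scaling the values that did not pass were -0.84 ± 0.33 for Rc3h1, -0.57 ± 0.43 for Zfp36l2, 0.47 ± 0.36 for Zfp36, 0.0740 ± 0.45 for Zfp36l1 and 0.20 ± 0.52 for Zc3h12a. In the corrected fit Zfp36 had -0.47 ± 0.36, Zfp36l1 -0.78 ± 0.39 and Zc3h12a -0.29 ± 0.67.

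The machinery that these proteins call on and their known targets were read through 6 lists, described by counts since they were chosen with earlier results known. Beside each count for stimulated KLF2+ against stimulated KLF2- cells stand the shares of all genes called, which were 35.5% higher and 39.7% lower with TMM scaling and 17.3% and 37.2% in the corrected fit. CCR4-NOT genes and their adaptors (15 tested) were called higher in stimulated KLF2+ than KLF2- cells for 12 and lower for 0 with TMM scaling, but for 0 and 3 in the corrected fit. Their median was 1.03 and then -0.18, beside -0.19 and -0.41 for all genes. Cnot9, a subunit that contacts decay factors, rose with stimulation in KLF2+ cells, from 74.7 and 90.5 to 222 and 223 CPM (1.43 ± 0.22, edgeR adjusted p = 0.00243, and 0.99 with adjusted p = 0.00402 in the corrected fit). Tob1, an antiproliferative adaptor of CCR4-NOT, was the 1 gene of this list called between unstimulated KLF2+ and KLF2- cells, beside 2.32% of all genes. It stood at 150 and 208 CPM in unstimulated KLF2+ cells and 49.3 and 55.7 CPM in unstimulated KLF2- cells, a log2 fold change of 1.77 ± 0.26 (edgeR adjusted p = 0.00921), which passed in the corrected fit too (1.48, adjusted p = 0.0336). With stimulation it fell in KLF2+ cells to 48.1 and 68.5 CPM (-1.62 ± 0.26, edgeR adjusted p = 0.0029). Myeloid marker sums were high in the same 2 unstimulated KLF2+ libraries, as given above, and their part in the Tob1 values was not tested.

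Of 18 other deadenylation, decapping and exonuclease genes, 12 were higher and 2 lower in stimulated KLF2+ than in stimulated KLF2- cells, and 4 and 4 in the corrected fit, with medians of 0.91 and -0.24. Dis3, an exosome nuclease, was at 114 and 112 CPM against 26.9 and 16.1 CPM, 2.39 ± 0.25 higher (edgeR adjusted p = 0.000242), and 1.63 higher in the corrected fit (adjusted p = 0.00412). Of 14 other AU-rich element and stem-loop binding proteins, 11 were higher and 2 lower, and 3 and 3 in the corrected fit, with medians of 1.04 and 0.40. The shares of all genes were 35.5% higher and 39.7% lower, and 17.3% and 37.2% after correction. Elavl1, the HuR gene, whose protein stabilises AU-rich messages that ZFP36 destabilises, was at 722 and 722 CPM in stimulated KLF2+ cells and at 273 and 197 CPM in stimulated KLF2- cells (1.62 ± 0.24, edgeR adjusted p = 0.000454, and 0.43 with adjusted p = 0.0293 in the corrected fit). Zc3h12c, the Regnase-3 gene, differed in the same direction as the Roquin genes. It was at 10.7 and 5.32 CPM in stimulated KLF2+ cells and 55.4 and 67.96 CPM in stimulated KLF2- cells, -2.96 ± 0.42 on the log2 scale (edgeR adjusted p = 0.000405), and -4.21 (adjusted p = 0.00168) in the corrected fit. The 8 dendritic cell markers summed to 51.3 and 44.3 CPM in stimulated KLF2+ and 128 and 170 CPM in stimulated KLF2- cells, and their part in the Zc3h12c difference was not tested.

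Signalling genes that control the decay factors (14 tested) were called higher in stimulated KLF2+ cells for 10 and lower for 0, and for 2 and 4 in the corrected fit, beside 35.5% and 39.7%, and 17.3% and 37.2%, of all genes. Their medians were 0.94 and -0.23. Mapkapk2, which encodes MK2, the kinase that phosphorylates ZFP36, was the member with the smallest p. It stood at 150 and 172 CPM in unstimulated KLF2+ cells, 628 and 717 CPM in stimulated KLF2+ cells, 139 and 138 CPM in unstimulated KLF2- cells, and 181 and 113 CPM in stimulated KLF2- cells. It rose in KLF2+ cells by 2.06 ± 0.26 (log2, edgeR adjusted p = 0.00108), and 1.60 (adjusted p = 0.00221) in the corrected fit. The difference between the 2 responses was 1.97 ± 0.36 (edgeR adjusted p = 0.014), and 1.08 (adjusted p = 0.0358) in the corrected fit. Zfp36, the gene of its substrate, had a response in KLF2+ cells of -0.17 ± 0.26 with TMM scaling and -0.63 ± 0.25 in the corrected fit. It did not pass in either of these fits, but was called lower in 6 of 20 alternatives. In TPM Zfp36 stood at 146 and 152 in unstimulated and 80.9 and 86.9 in stimulated KLF2+ cells.

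Known target transcripts of the ZFP36 proteins were described for 17 tested genes of 19 listed. In stimulated KLF2+ against stimulated KLF2- cells 11 were higher and 0 lower (all genes: 35.5% and 39.7%), and 10 and 2 of 16 in the corrected fit (all genes: 17.3% and 37.2%), with medians of 2.32 and 2.25 beside -0.19 and -0.41 for all genes. Il21, a cytokine gene of follicular helper cells with 1 copy of the nonamer, was at 2.702 and 3.64 CPM in unstimulated and 147 and 173 CPM in stimulated KLF2+ cells, a rise of 5.63 ± 0.35 (log2, SE, n = 2 per group; edgeR adjusted p = 8.93e-05). It was at 2.80 and 1.31 CPM, from 17 and 6.5 reads, in stimulated KLF2- cells. Il10, an anti-inflammatory cytokine gene, rose in KLF2+ cells from 1.58 and 1.33 to 91.99 and 115 CPM (6.16 ± 0.39, edgeR adjusted p = 1e-04). Ifng, the interferon-gamma gene, rose there from 15.9 and 24.3 to 176 and 135 CPM (2.95 ± 0.38, edgeR adjusted p = 0.0012, and 2.55 with adjusted p = 0.00522 in the corrected fit), and was at 18.5 and 8.71 CPM in stimulated KLF2- cells. Its 3′UTR held no copy of the nonamer. Tnf was higher in KLF2+ than in KLF2- cells without stimulus, at 24.3 and 22.8 against 8.83 and 8.53 CPM (1.44 ± 0.27, edgeR adjusted p = 0.0261), but did not pass in the corrected fit (1.34, adjusted p = 0.0649). The myeloid marker sums given above were high in the same 2 KLF2+ libraries, although the sort was for CD4 T cells, and their part in the Tnf difference was not tested.

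Known Regnase and Roquin targets (15 tested, without Zc3h12a itself) split, with 9 higher and 3 lower in stimulated KLF2+ cells (all genes: 35.5% and 39.7%), and 6 and 6 in the corrected fit (all genes: 17.3% and 37.2%). Their medians were 1.81 and 0.69 beside -0.19 and -0.41 for all genes. Tnf, Il2, Il6, Nfkbid and Ptgs2 are in both target lists. Ctla4, an inhibitory receptor gene, was at 520 and 644 CPM in stimulated KLF2+ and 44.2 and 37.7 CPM in stimulated KLF2- cells, 3.83 ± 0.36 higher (edgeR adjusted p = 0.000229), and 2.68 higher in the corrected fit (adjusted p = 0.00106). Tnfrsf4, the OX40 costimulatory receptor gene, rose in KLF2+ cells from 69.0 and 101 to 1084 and 1409 CPM (3.87 ± 0.48, edgeR adjusted p = 0.00103, and 3.42 with adjusted p = 0.00343 in the corrected fit). Icosl, which encodes the ICOS ligand, was lower in KLF2+ cells with and without stimulus, at 17.9 and 16.6 against 55.1 and 64.1 CPM without (-1.79 ± 0.21, edgeR adjusted p = 0.00383, and -2.21 with adjusted p = 0.0035 in the corrected fit). The summed dendritic cell markers ran the same way, at 63.0 and 65.7 CPM in unstimulated KLF2+ and 140 and 162 CPM in unstimulated KLF2- cells, and their part in the Icosl difference was not tested.

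Across the 8 libraries the members did not move as a unit. The Pearson r of log2 CPM was 0.93 between Rc3h1 and Rc3h2 and -0.92 between Zc3h12d and Rc3h2, and Zfp36 had -0.82 with Rc3h1 and 0.59 with Zfp36l2. These are descriptions over 8 libraries that share groups, depth and scaling. Among 10323 named genes averaging 10 CPM or more, the patterns most like a member's were those of Ocel1 (0.99), Fyn (0.99) and Tmem42 (0.99) for Zfp36, of Fbxw11 (0.99), Dctn1 (0.98) and Srebf1 (0.98) for Zc3h12d, and of Fnip1 (0.99), Fastkd1 (0.99) and Gbp2b (0.99) for Rc3h1. For Rc3h2 they were Snurf (0.998), Mei4 (0.996) and Nbeal1 (0.996). Zfp36l1 was most like Cd74 (0.93), Mir5107 (0.89) and Zswim8 (0.89), Zfp36l2 most like Prss12 (0.95), Gpcpd1 (0.92) and Ampd3 (0.91), and Zc3h12a most like Meak7 (0.84), Erc1 (0.84) and Enpp2 (0.84).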

How the data were processed

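RNA was measured in 8 libraries. The authors used HOMER, per the file headers, to count reads in mm10 RefSeq exons, 1 row per gene, unadjusted for depth, and the resulting estimated counts are multiples of 0.5. The authors also deposited TPM values, which sum to 504523 to 523430 per library. The submitters' processing notes name STAR 2.7.9, HOMER 4.11, SAMtools and DESeq2, and no source used here states read filters or strand use. Titles name polyA RNA and the protocol a SMARTer stranded pico kit, and how these fit together was not given either.

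Counts were rounded, filtered by filterByExpr and fitted with TMM in edgeR 4.0.16 (R 4.3.3), all 8 libraries together, 1 coefficient per group, 4 residual degrees of freedom. Each SE is the size of the log2 change over the root of its F statistic. For the corrected fit (15292 genes), reads per kb over 1464 receptor genes (1684 kb of exon) set a background that was subtracted from each gene in proportion to its exon length, and TMM factors came from genes of at least 50 CPM. DESeq2 1.42.0 and limma 3.58.1 on log2(TPM + 1) and log2(TPM + 0.1), TPM at least 1 in 2 libraries, were alternatives, as were other filters, left-out libraries and a replicate block. The scripts were tested on simulated data. Replicates of each group differed beyond sampling noise (chi-square per degree of freedom 5.00 to 24.6).

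All 7 members are named in each comparison. Pathway genes were taken as up to 3 called members of a list with the smallest p in a comparison, of which some are shown, and like genes as the 3 with the highest r. Levels of those genes in other groups are given beside them. Members and lists were chosen with earlier results of these data known. Sequences come from GRCm38 with GENCODE M21. Promoters were matched for 6 of the 7 members and are not shown, since no data here bear on them.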

Additional observations from a re-analysis of the deposited data

Results flagged for a closer look

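The response to stimulation differed between KLF2+ and KLF2- cells for 2 of the 7 genes by a test of the difference itself. The same test called 35.8% of all genes (20.3% positive and 15.5% negative), and whether the members differ from that share was not tested. For Rc3h2 the difference was -1.27 on the log2 scale (edgeR adjusted p = 0.0321): the gene fell by 0.77 in KLF2+ cells and had a value of 0.50 in KLF2- cells, where the change was not called. It did not pass without unstimulated KLF2+ replicate 1, stimulated KLF2+ replicate 2, either unstimulated KLF2- library or stimulated KLF2- replicate 4. For Zc3h12d it was 1.19 (edgeR adjusted p = 0.0204), from 0.77 in KLF2+ and -0.42 in KLF2- cells, and 0.44 (adjusted p = 0.21) in the corrected fit. It did not pass without unstimulated KLF2+ replicate 1, stimulated KLF2+ replicate 2 or either unstimulated KLF2- library. The background share of exon reads, 0.401% to 1.24% in stimulated KLF2+ and 11.4% to 20.1% in stimulated KLF2- cells, moved with both results, and its part in them was not tested.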

How the results depend on the processing

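Rc3h2 was lower in stimulated KLF2+ than KLF2- cells in all 18 alternatives, and no member was called without stimulus or in KLF2- cells in any of them. For the KLF2+ response the count of members called was 2, and it was 1 with the compared groups alone and 4 with limma on log2(TPM + 1) or log2(TPM + 0.1). For the difference of responses it was 2, and it was 1 with limma on log2(TPM + 1) unfiltered. The shares of all genes called with the compared groups alone and with log2(TPM + 0.1) are not given here. Whether any of these member counts differ from the share of all genes in its setting was not tested. Leaving out a library leaves 1 in its group, so member counts from those fits are not given. The corrected fit without stimulated KLF2- replicate 4 was a setting chosen after seeing the data. All genes called after correction numbered 8329 against 14396 (KLF2+ against KLF2-, stimulated), 4380 against 7096 (KLF2+ response) and 1809 against 6855 (difference). Without stimulus, 1148 genes were called by DESeq2's Wald test, 828 with the compared groups alone and 768 by limma on log2(TPM + 1), against 444. Limma on log2(TPM + 1) tested 19028 genes with the filter and 24746 without it. Filtered and unfiltered, it called 4471 and 3614 of them in the KLF2+ response and 4508 and 1468 for the difference. The causes were not tested.

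KLF2+ libraries share numbers 1 and 2, and KLF2- libraries 3 and 4. Same-numbered deviations correlated at 0.54 in KLF2+ and 0.087 in KLF2- cells over 2 pairs each. The labels do not say what a number marks and 2 pairs are too few to show it, so the numbers were not used as pairs. With the replicate block 2 members were called in the KLF2+ response, 0 in KLF2- and 3 for the difference, and 10851, 770 and 10857 genes in all. With block and correction it was 4, 0 and 3 members, and 5283, 2 and 3234 genes.

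These log2 values took the opposite sign. KLF2+ against KLF2-, unstimulated: Zc3h12a 0.0465 with DESeq2 size factors and 0.0453 with its Wald test, and with a library left out Zc3h12a ran from -0.26 to 0.19, Rc3h1 from -0.40 to 0.10 and Rc3h2 from -0.59 to 0.0702. KLF2+ against KLF2-, stimulated: Zfp36 -0.18 with 50 CPM scaling, -0.25 after correction and -0.41 with each limma fit. Zc3h12d was -0.13, -0.0205, -0.38 (pseudocount 1) and -0.40 (pseudocount 0.1), and -0.0049 after correction without stimulated KLF2- replicate 4. Zc3h12a was -1.03, -0.51, -1.08 and -1.29, and -0.54 without that library, -0.0474 with the compared groups alone and -0.11 to 0.44 with a library left out. Zfp36l2 was 0.0017 unfiltered and -0.28 to 0.18 with a library left out, and Zfp36l1 then -0.81 to 0.0578. KLF2+ response: Zc3h12a -0.14 with 50 CPM scaling and -0.23 and -0.28 with limma. With a library left out Rc3h1 ran from -0.45 to 0.0439, Zfp36 from -0.44 to 0.16 and Zfp36l1 from -0.72 to 0.14. KLF2- response: Zfp36l2 0.0357 with DESeq2 size factors, 0.0358 with its Wald test, 0.40 with 50 CPM scaling, 0.44 after correction, 0.42 with block and correction, 0.35 with each limma fit, and -0.35 to 0.26 with a library left out. Zfp36l1 was 0.12 with 50 CPM scaling or correction, 0.13 with block and correction, 0.0852 and 0.0866 with limma (pseudocounts 1 and 0.1) and 0.18 after correction without stimulated KLF2- replicate 4, and Zc3h12d 0.0045 with 50 CPM scaling. Difference of responses: Zfp36l1 -0.0348 with DESeq2 size factors, -0.0347 with its Wald test, -0.83 with 50 CPM scaling, -0.78 after correction, -0.85 with block and correction, -0.86 after correction without stimulated KLF2- replicate 4, -0.99 and -1.03 with limma, and -0.42 to 0.44 with a library left out. Zfp36 was -0.47 with 50 CPM scaling or correction, -0.44 with block and correction, -0.0465 without stimulated KLF2- replicate 4 after correction, and -0.58 with limma. Zc3h12a was -0.77, -0.29, -0.29, -0.32 and, with limma, -0.75 and -0.88, and -0.0882 to 0.46 with a library left out. Depth limits Zc3h12a most, with 54.5 reads in stimulated KLF2- replicate 4.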
